A study of Homo sapiens with 6 samples.

Results

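Collagens are secreted or membrane-bound proteins in which chains wind into a triple helix, and each gene encodes 1 kind of chain. The expression of collagen chains was compared between CD109-KO and parental A431 cells for all probe sets whose gene symbol follows the pattern of collagen chains, with the exception of COL17A1, the chain of hemidesmosomes. The rule found 41 genes with 1 probe set each, of 21448 gene probe sets and 17687 named genes on the array. They were divided by textbook structure into 10 fibrillar chains, 6 basement membrane chains (all of type IV), 10 FACIT chains (fibril-associated collagens with interrupted triple helices) and 15 others. A further 2 chains of the class lists were not analysed here.

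A431 is an established human squamous carcinoma cell line, and CD109 is a surface protein anchored in the membrane by a lipid and known as a co-receptor that binds TGF-β. CD109-KO cells are A431 cells edited with CRISPR/Cas9 guides against the first exons of CD109, and clones 26, 32 and 180 were each expanded from 1 sorted cell. Parental samples 5, 2 and 6 are unedited A431 cells. All cells grew as monolayers in complete medium without another treatment, and total RNA of each clone or sample was hybridized to 1 Clariom S array, 6 arrays in all. Clones that underwent sorting and expansion are compared with a parental line, so that cloning and the loss of CD109 cannot be told apart. The study calls its replicates biological, with technical repeats, but the labels do not say which cultures the parental numbers stand for, and p-values measure the spread between these arrays.

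Fibrillar collagens (among them types I, II, V and XI, and the more distant XXIV and XXVII) form the cross-banded fibrils of skin, bone and cartilage and are made in quantity by mesenchymal cells. Type IV collagen forms the meshwork on which epithelial cells rest, FACIT collagens decorate the surface of fibrils, and the remaining types build beaded filaments, hexagonal networks, transmembrane proteins or proteoglycan-like cores. Squamous epithelial cells typically make basement membrane and hemidesmosomal collagens, and little fibrillar collagen.

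CD109 itself was measured at log2 signals of 3.64, 3.45 and 3.62 in clones 26, 32 and 180, against 7.57, 7.75 and 8.13 in the parental samples (5, 2 and 6). The clones lay under background, so that CD109 was at least 4.68-fold lower (log2 difference -4.25, limma adjusted p = 1.09e-07). All 8 measured squamous epithelial markers were lower in CD109-KO cells, against 24.8% of all gene probe sets. Among them KRT5 and KRT14 stayed above background in every array, while CDH1, EPCAM and KRT18 lay under it in all 3 clones. As background served the log2 signal not exceeded by 95% of an array's 348 olfactory receptor probe sets, since these genes are silent outside the nose in most tissues. It ranged from 5.51 to 5.71 in the clones and from 4.07 to 4.20 in the parental samples. Antigenomic background controls were higher in CD109-KO arrays by 1.21 on the log2 scale and hybridization controls by 0.90. The median log2 fold change over all gene probe sets was 0.56, while 23 of 35 genes needed by every cell were lower. Of these 35 genes, 7 lay above background in all parental samples and in no clone, as did 3615 of all 21448 gene probe sets. A signal under background in the clones thus does not show that a gene is silent there. The interquartile range of log2 signals was 2.44 to 2.49 in the clones and 3.25 to 3.51 in the parental samples. From 43.3% to 47.9% of gene probe sets lay above background in the clones and from 65.7% to 67.1% in the parental samples. The part of these shifts in the collagen results was not tested, and the counts are given under each scaling. Centring moves all genes of an array alike and leaves the difference in range, while repeated quantile normalization makes the ranges equal.

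Of the 41 collagen chains, 34 were higher in CD109-KO cells and 0 were lower at an adjusted p under 0.01 and at least a 2-fold change, and 7 did not pass. That is 82.9% of the chains, against 36.8% of all gene probe sets called higher and 24.8% called lower. Limma found 0 chains lower also at an unadjusted p of 0.05, as did the methods' t-test, and each test had 37 higher at that level. Of all 21448 gene probe sets limma had 10666 higher and 6425 lower at that level, and the t-test 9928 and 5810. The 3 CD109-KO arrays lay above all 3 parental arrays for 38 chains, against 50.1% of all probe sets, and below them for 0 chains, against 29.5%, and the groups overlapped for COL27A1, COL12A1 and COL6A5. The median log2 fold change was 1.79 over the chains and 0.83 over the olfactory receptors, of which 137 of 348 were higher. Of the 34 chains called higher, 25 lay above background in all 3 CD109-KO arrays, against 4051 of the 7883 gene probe sets called higher. The dim chains COL11A1, COL14A1, COL19A1, COL6A3, COL6A6 and COL25A1 lost their calls under repeated quantile normalization and with the methods' t-test. Repeated quantile normalization gave 29 higher and 0 lower, against 30.6% and 24.1% of all gene probe sets. Centring on genes needed by every cell gave 41 higher, against 74%, and called all 348 olfactory receptors higher too. Centring on hybridization controls gave 13 higher, against 5.1%, with 5 chains turned to a negative value. Centring on antigenomic controls left 8 higher, against 2.98%. These 8 were COL1A1, COL1A2, COL2A1, COL11A2, COL9A2, COL8A2, COL13A1 and COL18A1. Under this centring 12 other chains turned to a negative value and COL27A1 was called lower.

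**Figure D1:**
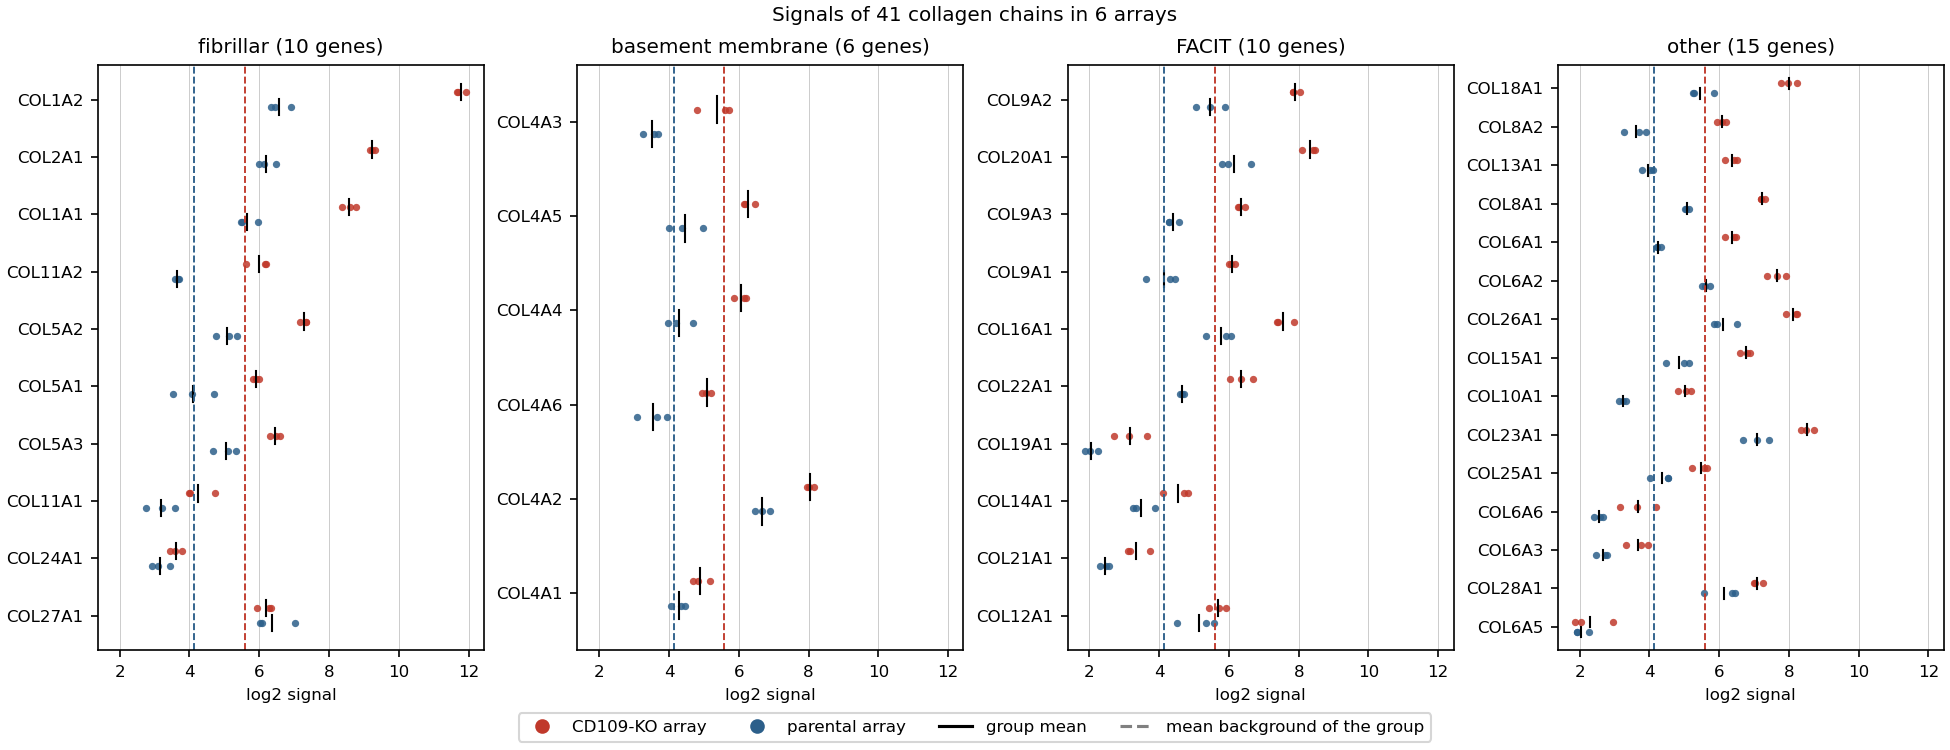
Log2 signals of the 41 collagen chains in 6 arrays, by class (x axis log2 signal, red points CD109-KO clones, blue points parental samples, black ticks group means, dashed lines the mean background of each group, 5.59 and 4.14). COL1A2 stands farthest to the right in CD109-KO arrays, while chains such as COL6A5, COL24A1 and COL11A1 lie under the dashed line of their own group.

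The chains called higher were 8 of 10 fibrillar (80%), 5 of 6 basement membrane (83.3%), 8 of 10 FACIT (80%) and 13 of 15 other chains (86.7%). The median log2 fold change was 2.00 over the fibrillar, 1.66 over the basement membrane, 1.74 over the FACIT and 1.90 over the other chains. The fibrillar class had the widest range, from -0.19 for COL27A1 to 5.20 for COL1A2, and the basement membrane class the narrowest, from 0.61 for COL4A1 to 1.87 for COL4A3. Chains that were both higher and above background in every CD109-KO array numbered 7 of the fibrillar, 3 of the basement membrane, 6 of the FACIT and 9 of the other class. Of all gene probe sets 18.9% were so. Under antigenomic centring 4, 0, 1 and 3 chains of these classes were higher, and under hybridization control centring 5, 0, 2 and 6. The difference between classes was not tested.

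**Figure D2:**
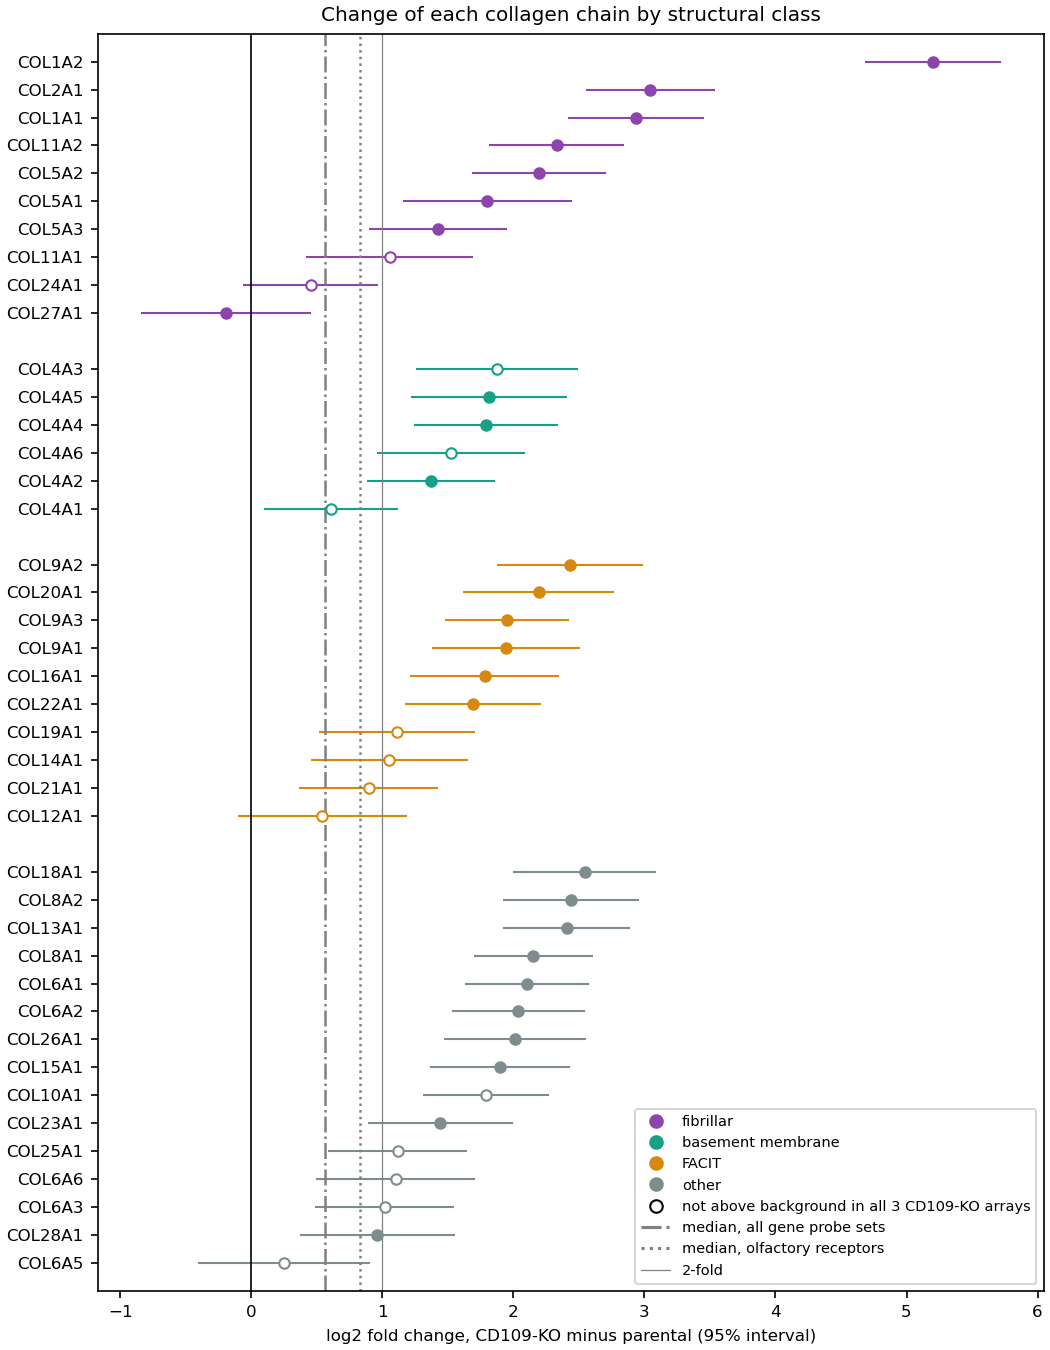
Log2 fold change of each chain, CD109-KO minus parental, with its 95% interval (x axis) by class (colour). Filled points lie above background in all 3 CD109-KO arrays, and the vertical lines mark 0, a 2-fold change and the medians of all gene probe sets (0.56) and of olfactory receptors (0.83). COL1A2 stands apart at 5.20 and COL27A1 alone lies below 0; with arrays centred on antigenomic controls 13 points lie below 0.

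Measured array by array as the median distance of a class from the parental means, the fibrillar chains lay at 1.92, 1.89 and 2.03 in clones 26, 32 and 180. The basement membrane chains lay at 1.77, 1.62 and 1.37 and the FACIT chains at 1.80, 1.84 and 1.49 in the same order. Clone 180 was thus the highest of the clones for the fibrillar class and the lowest for the other 3 classes. The other chains lay at 2.02, 1.94 and 1.74, and no parental array exceeded 0.28 in any class. Counted over single chains, clone 26 was the highest clone for 18 chains and clone 180 the lowest for 21, while parental sample 2 was the highest parental array for 23 chains and parental sample 6 the lowest for 25. The median SD over the chains was 0.19 between clones and 0.30 between parental samples.

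**Figure D3:**
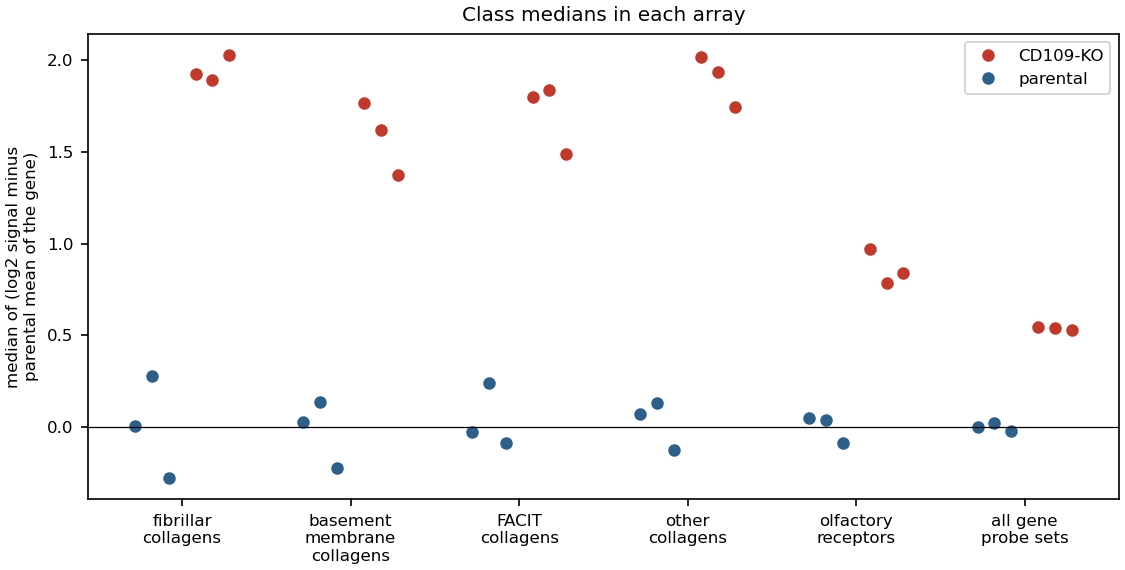
Median over the genes of a class of the log2 signal minus that gene's parental mean (y axis), 1 point for each array (red CD109-KO clones 26, 32 and 180 from left to right, blue parental samples 5, 2 and 6). The CD109-KO points of the collagen classes lie between 1.37 and 2.03, above those of the olfactory receptors (0.78 to 0.97) and of all gene probe sets (0.53 to 0.55).

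Among the fibrillar chains, both chains of type I collagen, the main collagen of skin and bone, rose in CD109-KO cells. COL1A2 (chr7:94394895-94431227 in GRCh38.p14), the α2 chain, had a log2 signal of 11.68, 11.69 and 11.94 in clones 26, 32 and 180 and of 6.91, 6.34 and 6.45 in parental samples 5, 2 and 6. COL1A1 (chr17:50184101-50201631), the α1 chain, had 8.60, 8.38 and 8.78 in the clones and 5.49, 5.98 and 5.49 in the parental samples. In both genes all clones lay far above all parental samples, and every one of these signals exceeded the background of its array. The log2 fold change of COL1A2 was 5.20 (SE 0.24, 36.8-fold, limma adjusted p = 6.38e-08), higher than 99.94% of all probe sets. For COL1A1 it was 2.93 (SE 0.24, 7.65-fold, limma adjusted p = 1.32e-06), and after centring on antigenomic controls the 2 chains kept values of 3.99 and 1.73. In type I collagen 1 α2 chain is built in beside a pair of α1 chains, and these log2 fold changes compare each gene with itself, not the amounts of the chains.

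COL2A1 (chr12:47972967-48006212), the chain of the type II collagen of cartilage, had a log2 signal of 9.33, 9.17 and 9.23 in clones 26, 32 and 180 and of 5.99, 6.47 and 6.13 in parental samples 5, 2 and 6. The clones lay within 0.16 of each other, and the lowest of them was above the highest parental sample. COL2A1 rose by 3.04 on the log2 scale (SE 0.22, limma adjusted p = 6.73e-07). Type XI collagen nucleates cartilage fibrils together with type II. COL11A2 (chr6:33162694-33193519) had 5.61, 6.17 and 6.18 in the clones, above background, and 3.59, 3.67 and 3.70 in the parental samples, under background. Its mean in the clones was 3.6-fold over the parental background (log2 fold change 2.33, SE 0.24, limma adjusted p = 6.67e-06). This is no lower bound, since the mean background was 5.59 in the clones and 4.14 in the parental samples. The mean of COL11A2 in the clones was 5.99. COL11A1 reached 4.01, 3.98 and 4.74 in the clones, under background in every array of both groups, and although its signals passed the test (limma adjusted p = 0.00586) no fold is given. Without clone 180, parental sample 5 or parental sample 6 COL11A1 did not pass (0.81, 1.08 and 0.85 on the log2 scale).

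Markers of other cell types are given beside the 36.8% of all gene probe sets called higher. Of 9 measured chondrocyte markers 5 were higher (55.6%) and 0 lower (median log2 fold change 1.03), COMP and SOX5 being above background in all 3 clones, while 6 of them, among them ACAN and MATN1, lay under background in all CD109-KO arrays. Of 10 fibroblast markers 8 were higher (80%, median 1.54) and 1, LUM, was lower, and 6 lay under background in all clones, whereas all 7 smooth muscle markers were higher (median 1.76) and 5 of those lay above background in every clone. Of 8 endothelial markers 5 were called higher and 0 lower (62.5%, median 1.31), and of 6 blood cell markers 4 were called higher and 1 lower (66.7%, median 1.58). Of these markers PECAM1, KDR, TEK and PTPRC lay under background in all 6 arrays. VWF, TIE1, CLDN5 and HBB were called higher and lay above background in all 6 arrays. The log2 of the summed signal of a list ranged from 8.83 to 9.05 in the clones and from 7.70 to 7.80 in the parental samples for chondrocyte markers, and from 8.50 to 8.61 and 7.42 to 7.77 for fibroblast markers. It ranged from 10.56 to 10.64 and 8.47 to 8.97 for smooth muscle markers and from 8.82 to 8.92 and 7.56 to 7.63 for endothelial markers, but was lower in the clones for blood cell markers (8.33 to 8.34 against 9.60 to 10.26). The blood cell marker called lower was CD68, the brightest of its list in the parental samples, with a mean of 5.63 in the clones and 9.79 in the parental samples. In bulk RNA more cells of a type and more RNA per cell cannot be told apart, and the part of other cell types in the collagen signals was not tested.

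Type V collagen sits inside type I fibrils and limits their diameter, and its 3 chains rose by 1.43 to 2.19. COL5A2 had a log2 signal of 7.35, 7.17 and 7.34 in clones 26, 32 and 180 and of 5.13, 5.37 and 4.77 in the parental samples (log2 fold change 2.19). COL5A1 had 6.00, 5.81 and 5.92 in the clones and 4.08, 4.71 and 3.52 in the parental samples, of which only sample 2 exceeded background (log2 fold change 1.80, limma adjusted p = 0.00018). The call of COL5A1 was lost with the methods' t-test. The groups did not overlap for either chain, and COL5A3 rose by 1.43 (limma adjusted p = 0.000228). None of the 3 passed after centring on antigenomic controls, with values of 0.99 for COL5A2, 0.60 for COL5A1 and 0.22 for COL5A3.

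The 2 fibrillar chains that did not pass are the late-described types XXIV and XXVII, which have shorter or interrupted helices. COL24A1 lay under background in all 6 arrays (log2 signals from 2.91 to 3.79). COL27A1, a chain of developing cartilage, was above background in all arrays with 5.94, 6.28 and 6.34 in clones 26, 32 and 180, against 7.04, 6.09 and 6.01 in parental samples 5, 2 and 6. Parental sample 5 alone lay above the clones, and the other parental samples lay within their range. The log2 fold change of COL27A1 was -0.19 with a 95% interval of -0.84 to 0.45 (limma adjusted p = 0.556) and 0.14 without parental sample 5. It was the only chain called lower after centring on antigenomic controls (-1.40).

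The genes of type IV collagen lie in pairs on opposite strands, with their starts facing each other across a short stretch that serves as promoter for both. The stretches between the starts are shown because the results for the class turn on whether the genes of a pair moved alike. They are given 5′ to 3′ on the plus strand from the RefSeq promoters of GRCh38.p14, so that each reads away from the gene on the minus strand, named first, and towards the gene on the plus strand. Capitals mark CCAAT (the box bound by NF-Y), GGGCGG (the GC box bound by Sp1) and CAGAC (the Smad box) or their reverse complements, and the TATA box TATAAA, the E-box of ZEB and SNAI factors CACCTG and the AP-1 site TGANTCA were searched too. Between COL4A1 and COL4A2 lie 126 bases (chr13:110307158-110307283), between COL4A4 and COL4A3 135 bases (chr2:227164489-227164623) and between COL4A6 and COL4A5 379 bases, of which the 250 before COL4A5 are shown (chrX:108439588-108439837). COL4A6 has 2 annotated starts 1036 bases apart, and the one nearer to COL4A5 was used. For COL4A4 the annotated end of the gene was taken as its start. The RefSeq promoter in which motifs of COL4A4 were counted (chr2:227164156-227164455) lies inside that gene and outside the stretch shown.
COL4A1-COL4A2: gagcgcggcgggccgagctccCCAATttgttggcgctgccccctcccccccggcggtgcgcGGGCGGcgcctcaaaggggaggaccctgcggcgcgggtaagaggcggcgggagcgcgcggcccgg
COL4A4-COL4A3: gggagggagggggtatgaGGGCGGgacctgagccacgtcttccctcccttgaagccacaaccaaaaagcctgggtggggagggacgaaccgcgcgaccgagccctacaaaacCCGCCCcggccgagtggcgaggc
COL4A6-COL4A5: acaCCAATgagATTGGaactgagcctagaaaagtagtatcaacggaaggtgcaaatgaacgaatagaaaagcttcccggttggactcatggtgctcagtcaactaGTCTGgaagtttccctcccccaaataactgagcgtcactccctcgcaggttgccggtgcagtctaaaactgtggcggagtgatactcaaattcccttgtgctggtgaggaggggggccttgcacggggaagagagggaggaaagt

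The stretch of COL4A1 and COL4A2 holds 1 CCAAT box and 1 GC box and is 80.2% G and C, that of COL4A4 and COL4A3 holds 2 GC boxes and is 68.1% G and C, and the part shown for COL4A6 and COL4A5 holds 2 CCAAT boxes and 1 Smad box and is 51.2% G and C. None of the 3 holds a TATA box. Over the promoters of RefSeq, from 250 bases before to 50 after a start, CCAAT was found on either strand in 4 of the 6 type IV genes (66.7%), in 8 of the 30 collagen genes with an entry (26.7%) and in 35.7% of 27305 genes. GGGCGG was found in 53.3% of the collagen genes and 44.5% of all, CAGAC in 40.0% and 45.1%, TATAAA in 10.0% and 12%, CACCTG in 16.7% and 20.6%, and TGANTCA in 0 of 30 and 7.72%. These matches describe letters in a window and no binding was measured.

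COL4A1 and COL4A2 encode the chains of the basement membrane network found in nearly all tissues, and only COL4A2 passed. COL4A2 (chr13:110307284-110513209) had a log2 signal of 8.17, 7.94 and 8.02 in clones 26, 32 and 180 and of 6.67, 6.88 and 6.46 in parental samples 5, 2 and 6. COL4A1 (chr13:110148963-110307157) had 4.68, 5.16 and 4.82 in the clones and 4.33, 4.06 and 4.44 in the parental samples. The groups were apart for both genes, but COL4A1 lay under background in all clones and above it in parental samples 5 and 6. COL4A2 rose by 1.37 (SE 0.22, limma adjusted p = 0.000176), and COL4A1 had a log2 difference of 0.61 with a 95% interval of 0.097 to 1.12 (limma adjusted p = 0.0319). A pass in 1 gene of a pair and not in the other does not show that their changes differ, and with 3 arrays a group an exact permutation test could not reach a p under 0.1, so that no such test is given for the 3 pairs.

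COL4A3, COL4A4 and COL4A5 encode the chains of the specialised network of kidney glomeruli and lung. COL4A3 (chr2:227164624-227314792) had a log2 signal of 5.61, 5.73 and 4.79 in clones 26, 32 and 180 and of 3.56, 3.69 and 3.26 in parental samples 5, 2 and 6. Clone 180 was under background and the lowest clone, but above all parental samples, which were under background too. COL4A3 was called higher, with a log2 difference of 1.87 (SE 0.28, limma adjusted p = 0.000105). Its mean in the clones was 2.36-fold over the parental background, which is no lower bound. That mean of COL4A3, 5.38 on the log2 scale, lay below the mean background of the clones (5.59). Its neighbour COL4A4 (chr2:226967360-227164488) had 6.15, 6.20 and 5.86 in the clones and 4.19, 3.97 and 4.69 in the parental samples, and clone 180 was again the lowest clone. COL4A4 rose by 1.79 (SE 0.25, limma adjusted p = 6.38e-05).

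COL4A5 (chrX:108439838-108697545) had a log2 signal of 6.46, 6.18 and 6.14 in clones 26, 32 and 180 and of 4.36, 4.97 and 4.01 in the parental samples. COL4A6 (chrX:108155614-108439458), the partner of COL4A5 in epidermal and smooth muscle basement membranes, had 5.22, 5.06 and 4.96 in the clones and 3.93, 3.64 and 3.09 in the parental samples. In both genes clone 26 was the highest clone and the groups were apart, but COL4A6 lay under background in all 6 arrays. COL4A5 rose by 1.81 (SE 0.27, limma adjusted p = 0.000106), and the signals of COL4A6 passed the test without a fold being given (limma adjusted p = 0.000234). No type IV chain was called higher after centring on antigenomic or hybridization controls, where the values of COL4A1 turned to -0.60 and -0.29.

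**Figure D4:**
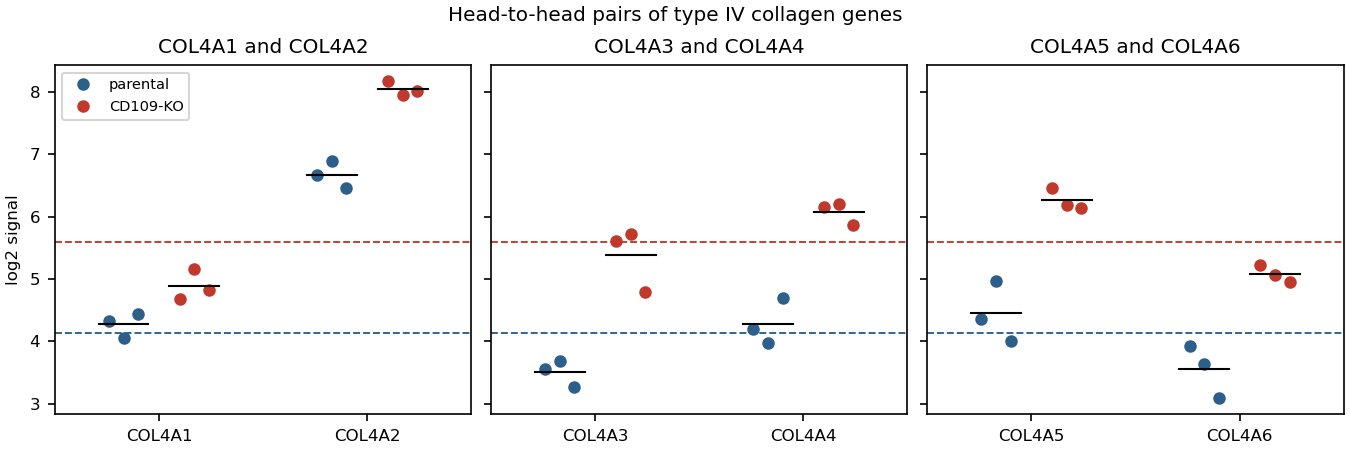
Log2 signals of the 6 type IV collagen genes (y axis) by head-to-head pair, 1 point for each array (blue parental, red CD109-KO), with group means as bars and the mean background of each group as dashed lines (4.14 parental, 5.59 CD109-KO). COL4A2, COL4A4 and COL4A5 lie above the red line in all clones, and COL4A1 and COL4A6 below it.

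Among the FACIT chains, those of type IX, which coats the type II fibrils of cartilage, rose together. COL9A2 had a log2 signal of 8.03, 7.83 and 7.83 in clones 26, 32 and 180 and of 5.44, 5.89 and 5.06 in parental samples 5, 2 and 6. COL9A3 had 6.30, 6.46 and 6.25 in the clones and 4.29, 4.29 and 4.56 in the parental samples, and COL9A1 had 6.05, 6.16 and 6.01 against 3.62, 4.46 and 4.32. The clones were above background and above all parental samples in the 3 genes, and only COL9A1 in parental sample 5 lay under its background. The log2 fold changes were 2.43 for COL9A2 (SE 0.25, limma adjusted p = 8.41e-06), 1.95 for COL9A3 (SE 0.22, adjusted p = 1.22e-05) and 1.94 for COL9A1 (SE 0.26, adjusted p = 4.41e-05). COL9A2 was the only FACIT chain still called higher after centring on antigenomic controls (1.23).

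COL20A1, a chain described in chick tissues with little known of its role in humans, had a log2 signal of 8.48, 8.40 and 8.10 in clones 26, 32 and 180 and of 5.97, 6.62 and 5.80 in the parental samples. All clones lay above all parental samples (log2 fold change 2.19, SE 0.26, limma adjusted p = 2.16e-05). COL16A1, which joins fibrils and is made by fibroblasts and keratinocytes, and COL22A1, a chain of tissue junctions such as that of muscle and tendon, rose by 1.78 and 1.69 with every array above background.

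Of the FACIT chains known from fibroblasts of skin and tendon, COL12A1 did not pass and COL14A1 lay under background. COL12A1 had a log2 signal of 5.43, 5.71 and 5.92 in clones 26, 32 and 180 and of 5.57, 4.51 and 5.34 in parental samples 5, 2 and 6. The groups overlapped, with parental sample 5 above clone 26, and the log2 difference was 0.54 with a 95% interval of -0.10 to 1.19 (limma adjusted p = 0.109). COL14A1, COL19A1 and COL21A1 lay under background in every array of both groups. The signals of COL14A1 and COL19A1 passed the test (adjusted p = 0.00405 and 0.00282 from limma), but COL14A1 did not without clone 32, clone 180, parental sample 5 or parental sample 6 (from 0.92 to 0.98 on the log2 scale) and COL19A1 did not without clone 26, parental sample 5 or parental sample 6 (0.87, 1.10 and 1.04). COL21A1 did not pass (0.90), though it did without clone 180 (1.01).

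Of the remaining chains, both multiplexins, the proteoglycan-like collagens of basement membrane zones, rose. COL18A1 (chr21:45405165-45513720), whose end fragment is endostatin, had a log2 signal of 7.78, 7.98 and 8.23 in clones 26, 32 and 180 and of 5.27, 5.84 and 5.24 in parental samples 5, 2 and 6. Clone 180 was the highest array here, and the groups were far apart (log2 fold change 2.55, SE 0.25, limma adjusted p = 5.31e-06). COL15A1 rose by 1.90, and after centring on antigenomic controls COL18A1 stayed above the threshold (1.34) and COL15A1 did not (0.69).

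The short chain collagens form hexagonal lattices under endothelia (type VIII) and in growing cartilage (type X). COL8A1 had a log2 signal of 7.19, 7.19 and 7.30 in clones 26, 32 and 180 and of 5.15, 5.05 and 5.02 in parental samples 5, 2 and 6, with an SD of 0.065 between the clones and 0.068 between the parental samples. COL8A2 had 6.08, 5.94 and 6.20 in the clones and 3.90, 3.29 and 3.70 in the parental samples, all of them under background. COL8A1 rose by 2.15 (SE 0.21, limma adjusted p = 4.83e-06) and COL8A2 by 2.44 (SE 0.24, adjusted p = 5.01e-06). The mean of COL8A2 in the clones was 6.07, which is 3.82-fold over the parental background, while the mean background of the clones was 5.59. COL10A1, the chain of hypertrophic chondrocytes, lay under background in all 6 arrays, with 4.83 to 5.20 in the clones and 3.12 to 3.34 in the parental samples. Its signals passed the test (limma adjusted p = 2.49e-05), but no fold is given.

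The transmembrane collagens span the cell membrane once and can be shed. COL13A1, a chain of adhesion sites, had a log2 signal of 6.52, 6.43 and 6.17 in clones 26, 32 and 180 and of 4.01, 4.10 and 3.79 in the parental samples, which were all under background. Its mean in the clones was 4.72-fold over that parental background (log2 fold change 2.41, SE 0.22, limma adjusted p = 3.41e-06). On the log2 scale that mean was 6.375, and the mean background of the clones was 5.59. COL23A1 was bright in both groups, with 8.73, 8.49 and 8.34 in the clones and 7.10, 7.43 and 6.69 in the parental samples, and rose by 1.44. COL25A1, the precursor of an amyloid-associated peptide of brain, was called higher (1.12), but the arrays above background were those of clone 26 and of parental samples 2 and 6, and it did not pass without parental sample 5 (0.95).

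Type VI collagen makes beaded filaments around cells from an α1, an α2 and a longer chain. COL6A1 had a log2 signal of 6.44, 6.16 and 6.49 in clones 26, 32 and 180 and of 4.33, 4.21 and 4.23 in the parental samples, and COL6A2 had 7.66, 7.93 and 7.36 against 5.73, 5.58 and 5.52. These genes lie 93063 bases apart on chromosome 21, both were above background everywhere, and they rose by 2.11 for COL6A1 and 2.04 for COL6A2. The 3 genes for the longer chain, COL6A3, COL6A5 and COL6A6, lay under background in every array. Among them COL6A3 had 3.95, 3.34 and 3.75 in the clones and 2.73, 2.79 and 2.46 in the parental samples. Its signals passed the test (limma adjusted p = 0.00234), but not without clone 26, clone 180 or parental sample 6 (from 0.88 to 0.98 on the log2 scale). COL6A6 passed likewise (adjusted p = 0.00337), but not without clone 26, clone 32, parental sample 5 or parental sample 6 (from 0.84 to 1.12). COL6A5, 31873 bases from COL6A6 on chromosome 3, had 1.88, 2.04 and 2.97 in the clones and 1.94, 2.27 and 1.92 in the parental samples. Clone 180 alone stood above the rest, and the log2 difference of 0.25 (95% interval -0.40 to 0.90) became -0.086 without it.

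The last pair of chains, COL26A1 and COL28A1, are secreted and less studied. COL26A1, known from mouse testis and ovary, had a log2 signal of 8.20, 8.24 and 7.92 in clones 26, 32 and 180 and of 5.86, 6.51 and 5.94 in the parental samples, and rose by 2.01. COL28A1, known from peripheral nerve in mouse, had 7.25, 7.03 and 7.0 in the clones and 6.38, 6.44 and 5.57 in the parental samples. Although its groups did not overlap, COL28A1 fell short of a 2-fold change (log2 difference 0.96, 95% interval 0.37 to 1.55), which it reached without parental sample 5 (1.09) or parental sample 2 (1.12).

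Of 22 measured genes that fold, trim or crosslink collagen chains, 11 were higher (50%), 6 were lower (27.3%) and 5 did not pass (median log2 fold change 1.10), against 36.8% and 24.8% of all gene probe sets. Among those higher were the crosslinking enzymes LOXL1 (5.24, 18.3-fold over the parental background) and LOX (2.72) and PCOLCE (4.52), which enhances the trimming of procollagen ends. Among those lower were PLOD2, which hydroxylates lysines (-3.99), P4HA1 and P4HB, the subunits of the prolyl hydroxylase (-3.96, at least 8.54-fold, and -3.38), and the collagen chaperone SERPINH1 (-1.09). P4HA3, another subunit of this hydroxylase, was higher by 2.53 (2 of 3 clones above background), with a mean in the clones 3.86-fold over the parental background. Centring on genes needed by every cell turned SERPINH1 to 0.87, and no other processing gene named here changed direction under the 3 centrings.

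PCOLCE had a log2 signal of 11.05, 11.12 and 11.18 in clones 26, 32 and 180 and of 6.67, 7.04 and 6.10 in parental samples 5, 2 and 6. PLOD2 had 6.13, 6.17 and 6.32 in the clones and 10.15, 10.43 and 10.02 in the parental samples. The groups were thus far apart in opposite directions (adjusted p = 1.54e-07 for PCOLCE and 1.17e-07 for PLOD2 from limma), with every array above background.

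Of 9 measured collagen receptors, 7 were higher (77.8%) and 2 were lower (22.2%, near the 24.8% of all gene probe sets), with a median log2 fold change of 1.67. DDR2, the discoidin receptor of mesenchymal cells that binds fibrillar collagen, had a log2 signal of 7.46, 7.64 and 7.41 in clones 26, 32 and 180 and of 4.15, 4.77 and 4.43 in the parental samples. DDR1, the discoidin receptor of epithelial cells, had 6.38, 6.51 and 6.63 in the clones and 10.22, 10.44 and 10.15 in the parental samples. DDR2 rose by 3.05 (limma adjusted p = 9.38e-07) while DDR1 fell by 3.76 (adjusted p = 1.41e-07), and all arrays were above background for both. ITGA2, the α2 subunit of the epithelial collagen integrin, fell by 3.47 to below background (at least 4.37-fold), and MRC2, an endocytic collagen receptor, and ITGA10, a collagen integrin subunit of cartilage, rose by 2.24 and 1.76. Also called higher were LAIR1 (1.74), GP6 (1.67), ITGB1 (1.31) and ITGA11, which lay under background in all 6 arrays. Centring on antigenomic controls gave 1.845 for DDR2, 1.03 for MRC2, 0.55 for ITGA10, 0.53 for LAIR1, 0.46 for GP6, 0.11 for ITGB1, -4.97 for DDR1 and -4.67 for ITGA2.

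Of 11 measured partners of type IV collagen in basement membranes, 4 were higher (36.4%), 3 were lower (27.3%) and 4 did not pass (median log2 fold change -0.064), shares near the 36.8% and 24.8% of all gene probe sets. LAMC1, the γ1 chain of most laminins, had a log2 signal of 4.81, 5.50 and 5.46 in clones 26, 32 and 180, under background, and of 8.34, 8.10 and 8.12 in the parental samples (-2.93, at least 6.07-fold lower, limma adjusted p = 1.9e-06). LAMB1, the β1 chain, lay under background in all clones and was at least 1.56-fold lower (log2 difference -1.94). NID1, which ties laminin to type IV collagen, fell by 1.27, and LAMB2 rose by 1.38 with every array above background. Centring on genes needed by every cell turned NID1 to 0.69 and LAMB1 to 0.03. NID2 and LAMA2 were called higher (1.68 and 1.45 on the log2 scale) but lay under background in all 6 arrays. HSPG2, the gene of the proteoglycan perlecan, had a log2 difference of 0.39 with a 95% interval of -0.21 to 0.996, and it turned to -0.82 and -0.51 after centring on antigenomic and hybridization controls.

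**Figure D5:**
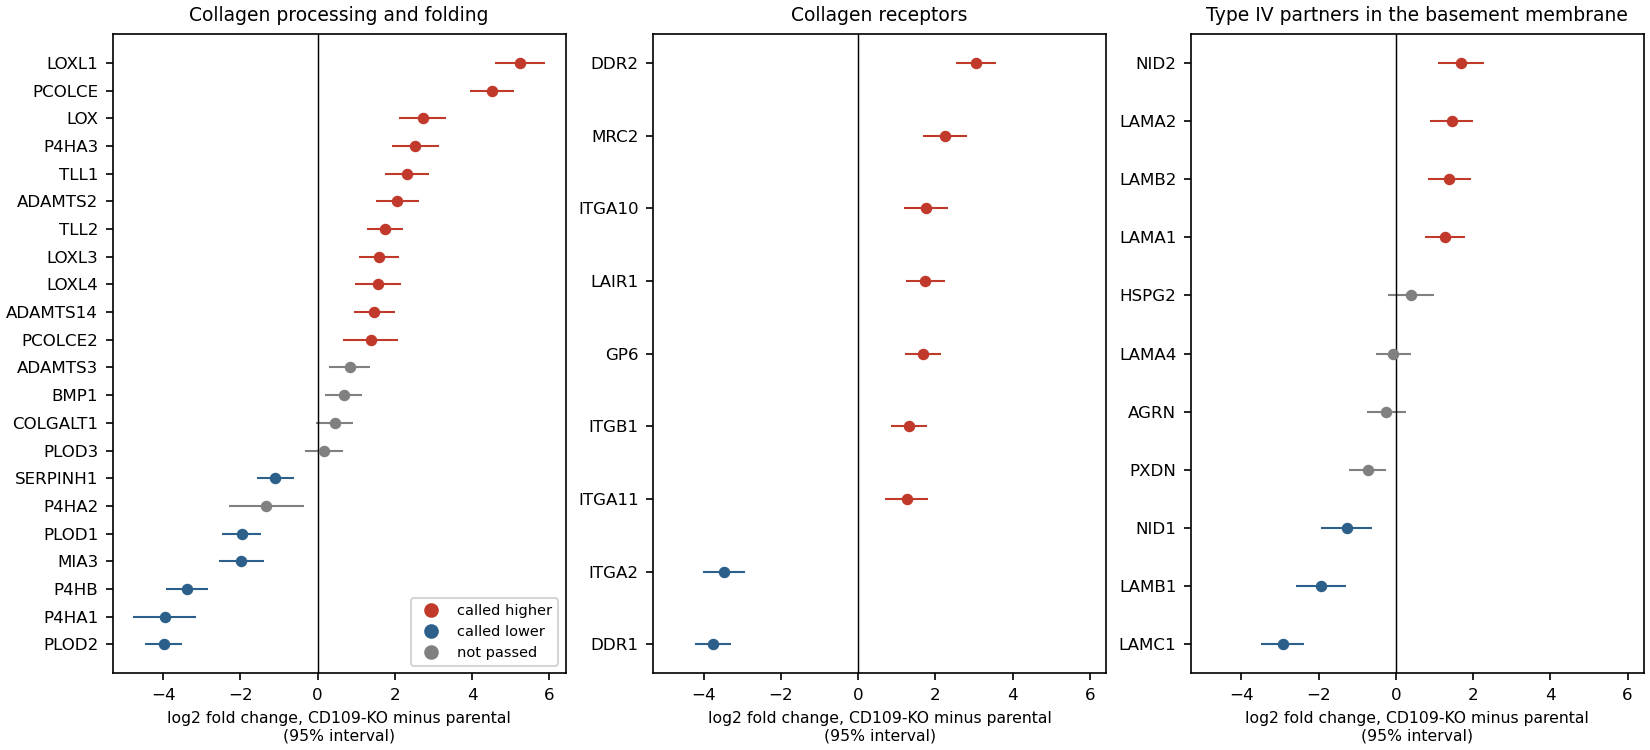
Log2 fold change with its 95% interval (x axis, CD109-KO minus parental) of genes for collagen processing, collagen receptors and the basement membrane partners of type IV collagen (red called higher, blue called lower, grey not passed). Each panel holds genes on both sides of 0, from LOXL1 at 5.24 to PLOD2 at -3.99 in the first.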

How the data were processed

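For 6 Clariom S arrays the authors deposited log2 signals of 24351 probe sets, background-corrected and normalized with Gene Expression Console (Affymetrix) by an algorithm not given in the sources used here. Submitters' processing notes list hg38 and Transcriptome Analysis Console. A total of 2903 control probe sets were left out, leaving 21448 gene probe sets, of which 17709 have 1 symbol in the platform annotation. CD109-KO and parental arrays were compared with limma 3.58.1 in R 4.3.3 (lmFit and eBayes), with Benjamini-Hochberg adjustment over all gene probe sets and the thresholds of the study, an adjusted p under 0.01 and at least a 2-fold change. Where a group lay under background in all arrays, the fold is the brighter mean over the dimmer mean, with dim signals raised to background. It is given as a lower bound only where the clones were the dimmer group. Where the parental samples were dimmer it is no lower bound, since the mean background was 5.59 in the clones and 4.14 in the parental samples. The number of arrays limits the precision. The alternatives were other priors, tests, normalizations, centrings, filters and thresholds and leaving out each array. The fit was tested on simulated data. Every chain is accounted for, with full statistics for the 4 called chains of each class with the largest change, for chains of a trimer or gene pair whose partners do not share the call, and for CD109. The partner genes named are the 3 called with the largest change in each direction, the remaining collagen receptors, and SERPINH1, P4HA3 and HSPG2, chosen after their values were seen. The chains and gene lists were chosen with earlier results of these data known. Sequences and coordinates are those of RefSeq, GRCh38.p14.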

Additional observations from a re-analysis of the deposited data

How the results depend on the processing

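Centring on antigenomic controls, on hybridization controls and the 4-fold threshold gave 8, 13 and 14 chains higher in place of 34. By class these were 4, 5 and 5 fibrillar, 0, 0 and 0 basement membrane, 1, 2 and 2 FACIT and 3, 6 and 7 other chains. Basement membrane chains were 3 with a filter above background in 3 of 6 arrays and 3 when the brighter group had to lie above background. Antigenomic centring called 1 chain lower, the fibrillar COL27A1. It turned COL11A1 (-0.15), COL24A1 (-0.75), COL4A1 (-0.60), COL12A1 (-0.66), COL14A1 (-0.15), COL19A1 (-0.092), COL21A1 (-0.31), COL6A3 (-0.19), COL6A5 (-0.96), COL6A6 (-0.10), COL25A1 (-0.088) and COL28A1 (-0.24). Hybridization control centring turned COL24A1 (-0.44), COL4A1 (-0.29), COL12A1 (-0.35), COL21A1 (-0.0025) and COL6A5 (-0.65), quantile normalization COL24A1 (-0.13) and COL6A5 (-0.15), and centring on genes needed by every cell COL27A1 (1.77). The median log2 fold change over all probe sets was 0.56 as deposited. It was -0.64, -0.33, 0.34 and 2.53 under these 4 scalings, in the order antigenomic, hybridization, quantile and every cell. Over all probe sets the calls were 7883 higher and 5310 lower (59.8% higher) as deposited, 640 and 8640 (6.9%) after antigenomic, 1093 and 6883 (13.7%) after hybridization and 15878 and 1719 (90.2%) after every cell centring. They were 5343 and 3539 with the methods' t-test, 4499 and 5140 (46.7%) with the background filter, 4051 and 5148 (44%) with the brighter group above background and 1314 and 3326 (28.3%) at 4-fold. The methods' t-test at an unadjusted p of 0.01 and 2-fold called 30 chains higher and 0 lower, and 27 and 0 after Benjamini-Hochberg adjustment. Leaving out 1 array gave 29 to 35 chains higher and 0 lower, COL27A1 from -0.38 to 0.14 and COL6A5 from -0.086 to 0.46. No paired analysis was possible because the groups share no replicate numbers. The cause of these changes was not tested. A total of 10 chains lay above background in no array, and signal over background limits what their values show.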
